A study of Rattus with 4 samples.

Results

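The peaks described here lie in 7 rat genes: Hsp90aa1, Hsp90ab1 and Hsp90b1 of the HSP90 chaperone family, Hspa5, Hspa8 and Hspa9 of the HSP70 family, and Xbp1, a transcription factor gene of the unfolded protein response. The genes were chosen by family and from the peak calls themselves, with earlier results on peaks found in both lists and on their strand already known. Every peak carrying one of these 7 gene names in the deposited annotation was kept, which gave 16 of the 2696 peaks of immunoprecipitate (IP) replicate 1 and 54 of the 8108 peaks of IP replicate 2. Because peak calls chose the genes, their peaks are described without a test. The counts over all peaks or genes stand beside them as background.

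The study used H9C2, an embryonic rat heart myoblast line, and asked which RNAs RBM25, a splicing factor associated with U1 snRNP, is bound to. Cells were irradiated with ultraviolet light to cross-link protein to RNA, the lysate was treated with DNase and micrococcal nuclease, and stranded libraries were sequenced as read pairs. The series has 2 RBM25 IP samples and 2 input samples of the same line, and the labels give no treatment other than IP or input. The sources used here give neither the antibody nor whether these cells carried extra RBM25. The peak list of each IP was analysed and the inputs were not used here. The labels do not state whether the replicates are separate cultures.

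HSP90 and HSP70 proteins are ATP-driven chaperones that fold and stabilise other proteins. HSP70 members take up unfolded chains with the help of DnaJ proteins, and HSP90 members act later on partly folded clients such as kinases and steroid receptors. Each family has cytosolic and organelle forms. When unfolded proteins build up in the endoplasmic reticulum, the sensor IRE1 cuts an unconventional intron out of Xbp1 mRNA, and the resulting factor raises the genes of folding and degradation in that compartment. In heart muscle these proteins take part in the response to heat, ischaemia and secretory load.

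A tag number below is the deposited signal per 50-nt bin; for a peak of several bins it is the mean over them. Tags are not scaled for depth, and library depth is unknown, so a higher number in replicate 2 does not show more binding. The lowest tags of any plus-strand peak were 20 in each list, and of any minus-strand peak 19 in replicate 1 and 20 in replicate 2. A bin with no peak may therefore hold fewer tags rather than none. Median tags were 24 over the replicate 1 list and 26 over the other. Peak positions are those of the deposited files, on the rat build mRatBN7.2, and sense or antisense is relative to the gene in the deposited annotation. A peak is called recurrent, or shared, when it overlaps a peak of the other list on the same strand.

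The chaperone genes differed in how many peaks they carried and on which strand. In replicate 1 there were 9 sense and 7 antisense peaks over 6 genes, and Hspa9 had none. In replicate 2 there were 29 sense and 25 antisense peaks, and each of the 7 genes had both kinds. Of the 16 replicate 1 peaks, 14 recurred in replicate 2, 8 sense and 6 antisense; over all replicate 1 peaks 61.0% recurred. Those 14 were 25.9% of the 54 replicate 2 peaks, where the share over the whole list was 20.3%. Recurrence helped choose these genes, so nothing is read from its level.

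**Figure D1:**
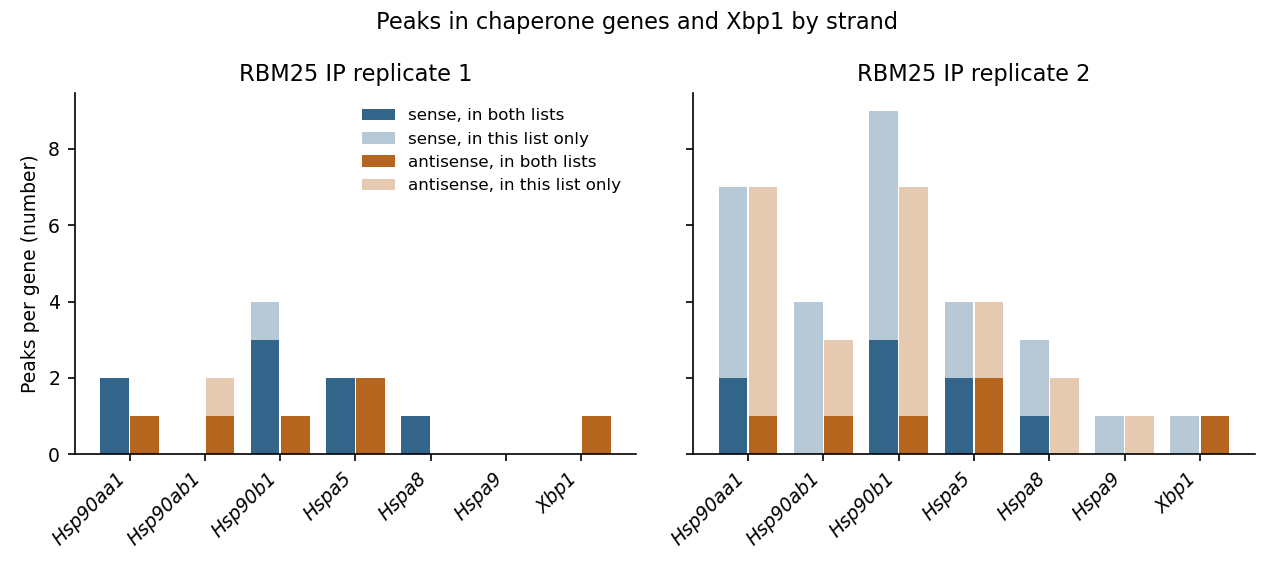
Number of peaks per gene (vertical axis) in each RBM25 IP replicate, sense in blue and antisense in brown; the dark part of a bar recurred in the other list and the pale part did not. Hsp90b1 and Hsp90aa1 carried 16 and 14 peaks in replicate 2, Hsp90ab1 and Xbp1 had antisense peaks alone in replicate 1, and Hspa9 had no peak there.

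Hsp90aa1 encodes the stress-inducible cytosolic HSP90 alpha. It carried 3 peaks in replicate 1, 2 sense and 1 antisense, and all 3 recurred at the same position in replicate 2. The strongest was a sense peak at chromosome 6, 129704600 to 129704650, with 37 tags in replicate 1 and 40 in replicate 2, and a fraction of 0.82 of its bin in coding sequence and 0.18 in intron. This was the highest of all 16 replicate 1 peaks, at the 87.9th percentile of that list by tags. A second recurrent sense peak, wholly coding at 129704100 to 129704150, had 19 and 26 tags. The recurrent antisense peak lay in the adjoining bin, 129704050 to 129704100, with 22 and 26 tags. In both lists these neighbouring bins were thus called on 1 strand each, the sense peak next to the antisense peak and not opposite it.

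Replicate 2 held 11 further Hsp90aa1 peaks, for 7 sense and 7 antisense in all over 4950 nt. The highest was antisense, at 129706600 to 129706650 with 56 tags, and no sense peak shared its bin. Coding bins at 129705850 to 129705900 and 129706200 to 129706250 had sense peaks of 40 and 41 tags, and the second of these had an antisense peak of 41 tags as well. The peak nearest the 5′ end, at 129707800 to 129707850, was almost wholly intronic, with a fraction of 0.98 in intron and 0.02 in the 5′ UTR, and had 27 sense and 25 antisense tags. Of the 7 antisense peaks, 3 shared a bin with a sense peak.

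Hsp90ab1 encodes the constitutive cytosolic HSP90 beta. In replicate 1 it had antisense peaks alone, at chromosome 9, 15434950 to 15435000 and 15438100 to 15438150, with 21 tags each. The second recurred with 38 tags in replicate 2, and the first did not recur. Replicate 2 added 4 sense peaks, none of which was in the replicate 1 list. They had 28 tags at 15435650 to 15435700, 27 at 15437150 to 15437250, 40 at 15437650 to 15437700 and 30 at 15438100 to 15438150. The first and second of these were wholly coding, and the other pair held coding and intron sequence. All 3 antisense peaks of replicate 2, with 31, 46 and 38 tags, shared a bin with a sense peak. Hsp90ab1 therefore had a recurrent antisense peak and no recurrent sense peak. At the recurrent position the sense peak was in the replicate 2 list with 30 tags against 38 antisense.

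Hsp90b1 encodes GRP94, the HSP90 of the endoplasmic reticulum. It carried the most peaks of the 7 genes in each list, 5 in replicate 1 and 16 in replicate 2. Over all genes, 103 of 922 had more peaks than it in replicate 1 and 64 of 1819 in replicate 2. Its 4 recurrent peaks comprised 3 sense and 1 antisense. All 4 sense peaks of replicate 1 held coding and intron sequence, as did 7 of the 9 in replicate 2.

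The sense peak at chromosome 7, 21113950 to 21114000, with 0.72 of its bin coding and 0.28 intronic, had 29 tags in replicate 1 and 26 in replicate 2; it was the only 1 of the 14 recurrent peaks with fewer tags in replicate 2. At 21110700 to 21110750 the sense peak had 19 tags in replicate 1, the lowest value of that list, and 55 in replicate 2. That is a ratio of 2.89, the highest of the 14. The antisense peak of the same bin had 70 tags in replicate 2, the highest of all 70 peaks, and was not in the replicate 1 list. At 21116400 peaks on both strands recurred, with 23 sense and 26.5 antisense tags in replicate 1 and 27 and 27.7 in replicate 2. This was the only Hsp90b1 position called on both strands in both lists. A sense peak of 20 tags at 21120950 to 21121000 was in replicate 1 alone.

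Sense and antisense peaks followed each other closely along Hsp90b1 in replicate 2: all 7 antisense peaks shared a bin with a sense peak. At 21117450 to 21117550 they had 55 sense and 56 antisense tags, and at 21112000 to 21112050 they had 49 and 27. The latter was the pair in which sense led by the most. Only the sense peaks at 21113600 and 21115100, with 23 tags each, had no antisense partner. Antisense peaks of replicate 2 shared a bin with a sense peak of the same gene in 3 of 3 cases at Hsp90ab1 and 3 of 4 at Hspa5. At Hsp90aa1 it was 3 of 7 and at Hspa8 1 of 2. Over all genic peaks of replicate 2, 70.3% had a peak on the opposite strand in a shared bin. Such pairing is therefore not particular to Hsp90b1.

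**Figure D2:**
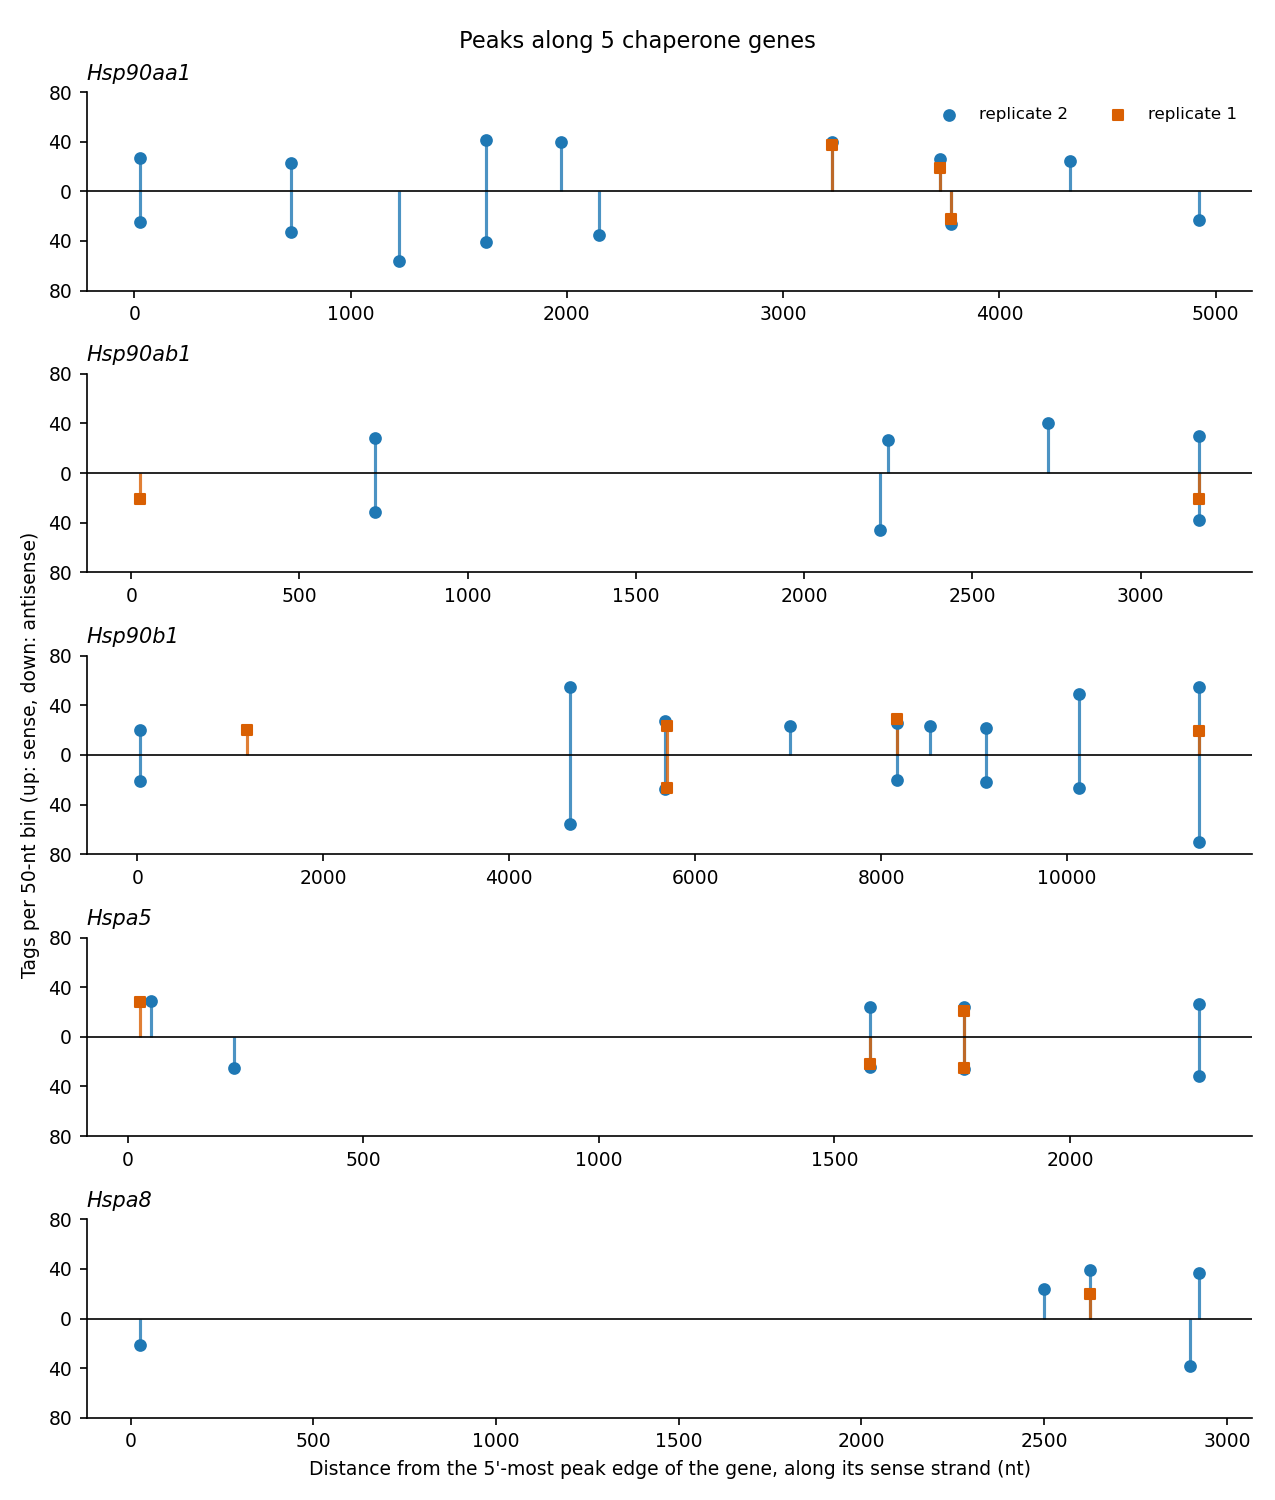
Tags per 50-nt bin (vertical axis; sense upward, antisense downward) at the midpoint of each peak against distance in nt from the 5′-most peak edge of 5 genes, with replicate 1 in orange squares and replicate 2 in blue circles. In Hsp90b1 and Hsp90ab1 each replicate 2 antisense peak mirrors a sense peak, whereas in Hsp90aa1 4 of 7 stand alone.

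Hspa5 encodes BiP (GRP78), the HSP70 of the endoplasmic reticulum, which holds the stress sensors inactive until unfolded proteins draw it away. Its 4 replicate 1 peaks, 2 sense and 2 antisense, all recurred among 8 peaks of replicate 2. The strongest recurrent peak was a sense peak at the 5′ end of the gene, from chromosome 3, 18055500, with 28 tags over 1 bin in replicate 1 and 29 over a longer peak to 18055600 in replicate 2. A fraction of 0.88 of the replicate 1 bin was 5′ UTR, with no class given for the rest. No other sense member peak of either list lay mostly in a 5′ UTR, and antisense peaks carry no such class. Downstream, at 18057250 to 18057300, both strands recurred, with 21 sense and 25 antisense tags in replicate 1 and 24 and 26 in replicate 2. At 18057050 to 18057100 the antisense peak recurred with 22 and 24 tags, and the sense peak, with 24 tags, was in replicate 2 alone. The 4 recurrent pairs of Hspa5 had ratios of replicate 2 to replicate 1 tags, unscaled for depth, of 1.04, 1.04, 1.09 and 1.14. Over all 1649 pairs of overlapping peaks the median ratio was 1.24.

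Hspa8 encodes Hsc70, the constitutive cytosolic HSP70 that also uncoats clathrin vesicles, and its introns are known to host small nucleolar RNAs (snoRNAs) of the U14 (SNORD14) family. Its only replicate 1 peak was a sense peak wholly inside an intron, at chromosome 8, 41186050 to 41186100, with 20 tags, and it recurred in replicate 2 with 39. Outside this position none of the 38 sense peaks of both lists was wholly intronic. Antisense peaks carry no exon or intron class. By gene name, Hspa8 would stand as the 1 gene with a sense peak and no antisense peak in replicate 1. The deposited lists, however, hold a minus-strand peak in this same bin in each replicate, annotated as antisense to LOC120094548, which the RefSeq name table gives as a snoRNA gene that overlaps Hspa8. Its tags, 20 and 39 in replicates 1 and 2, were equal to those of the sense peak. Whether the bin holds snoRNA sequence was not analysed here, since no gene models of the build were used.

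Replicate 2 had 4 further Hspa8 peaks. Sense peaks of 24 tags at 41185900 to 41186000, wholly coding, and of 36.7 tags at 41186300 to 41186450, with 0.8 of it coding, flanked the intronic bin. An antisense peak of 38 tags at 41186300 to 41186400 overlapped the second. A separate antisense peak of 21 tags lay at 41183450 to 41183500, upstream of the others.

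Hspa9 encodes mortalin, the mitochondrial HSP70 that pulls proteins across the inner membrane. It had 1 bin with peaks in replicate 2 alone, at chromosome 18, 26537100 to 26537150, with 28 sense tags and 33 antisense. The bin spans an exon-intron boundary, with a fraction of 0.46 in coding sequence and 0.54 in intron. Nothing recurred at this gene.

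Xbp1 also had a single bin, at chromosome 14, 80391600 to 80391650. Replicate 1 held its antisense peak alone, with 29 tags, and replicate 2 held that peak with 38 tags and a sense peak with 23. A fraction of 0.92 of the bin was coding and 0.08 intron. Whether that intron is the one that IRE1 removes was not analysed here. In replicate 2 the antisense peak was at the 80.9th percentile of the list by tags and the sense peak at the 30.6th.

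**Figure D3:**
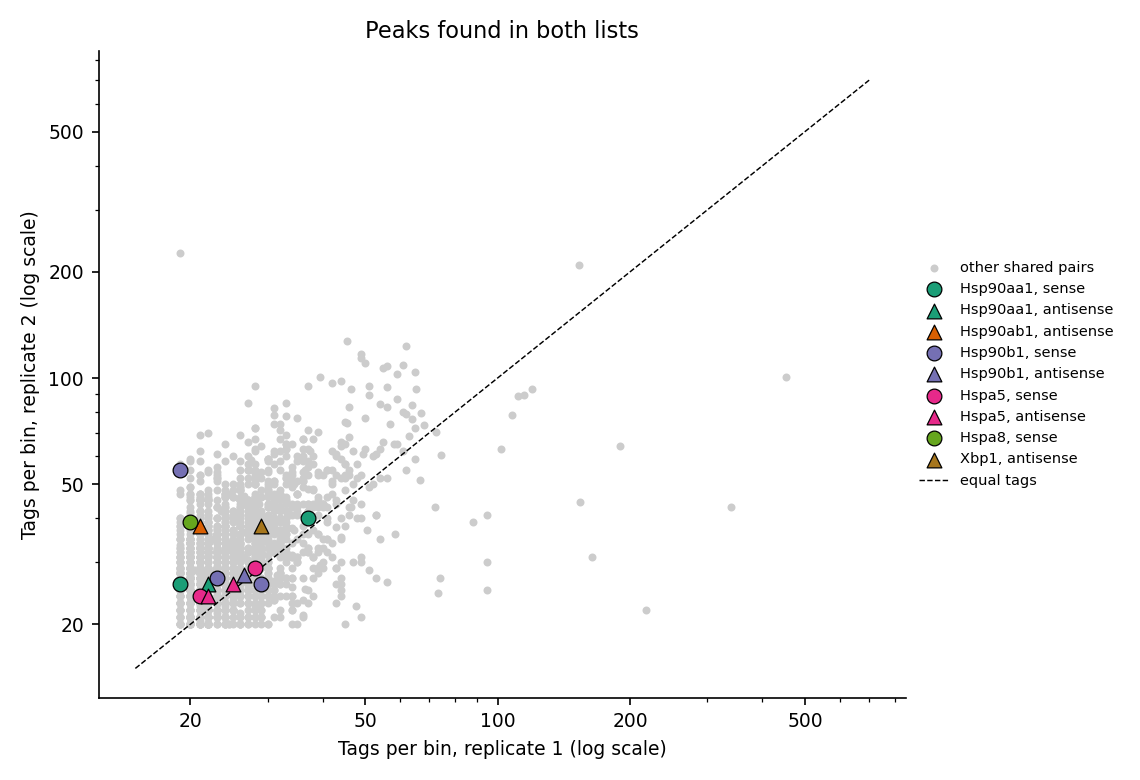
Tags in replicate 2 against tags in replicate 1 (both axes logarithmic) for pairs of peaks that overlap on the same strand; coloured symbols are the 14 pairs of the chaperone genes and Xbp1 (circles sense, triangles antisense) and grey points the other pairs. Of the 14, 13 lie above the dashed line of equal tags, and Hsp90b1 has the pair farthest above it, at 19 and 55 tags.

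By tags, the member peaks sat around the middle of each list. Tags of the 16 replicate 1 peaks ran from 19 to 37 with a median of 22, and those of the 54 replicate 2 peaks from 20 to 70 with a median of 27.3. In replicate 1, 10 of 16 peaks were below the median of the whole list, and in replicate 2 31 of 54 were above it. The ratio of replicate 2 to replicate 1 tags over the 14 pairs had a median of 1.15 and ran from 0.897 to 2.89. Over all 1649 pairs of overlapping peaks the median was 1.24, and 1253 had more tags in replicate 2. In replicate 2, recurrent member peaks had a median of 27.3 tags and the remaining 40 a median of 27.5, while over the whole list these medians were 31 and 25.

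Genes with sense peaks were set against those with antisense peaks alone. By gene name, Hsp90ab1 and Xbp1 were antisense-only in replicate 1, 2 of the 6 genes with a peak; 28.7% of all genes with a replicate 1 peak were. In replicate 2 none of the 7 was, against 15.9% of all genes with a peak there. The same pair of genes had a recurrent antisense peak and no recurrent sense peak. This also held for 179 of the 606 protein-coding genes with a recurrent peak, so it is not particular to this pair. The other 4 genes with a recurrent peak had at least 1 recurrent sense peak, namely Hsp90aa1, Hsp90b1, Hspa5 and Hspa8. Of the 265 genes that were antisense-only in replicate 1, 217 had a replicate 2 peak, and 160 of those (73.7%) had peaks on both strands there, as Hsp90ab1 and Xbp1 did; a further 15 had sense peaks alone. At 5 bins, namely 2 of Hsp90b1 and 1 each of Hsp90ab1, Hspa5 and Xbp1, replicate 1 held a peak on 1 strand and replicate 2 on both. The strand missing in replicate 1 was sense at Hsp90ab1, Hspa5 and Xbp1 and antisense at both Hsp90b1 bins.

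Antisense peaks made up 43.8% of the member peaks in replicate 1 (95% Wilson interval 23.1 to 66.8, counting error only) and 46.3% in replicate 2 (33.7 to 59.4). Over all peaks assigned to genes they made up 53.7% and 50.7%. Sense and antisense peaks of 1 bin come in pairs, and the choice of genes used the strand of their recurrent peaks. These peaks are therefore not independent draws, and the intervals are no test against that background. Of the 16 replicate 1 peaks, 5 had a peak on the opposite strand in a shared bin, counting the peak of the snoRNA gene, and of the 54 replicate 2 peaks 39 did (72.2%). The background over all genic peaks was 45.9% and 70.3%.

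Where both strands of a bin were called, sense minus antisense tags ran from -19 in Hsp90ab1 to 22 in Hsp90b1, both in replicate 2. In replicate 2, the sense share of the tags of a pair ran from 37.0% at 1 Hsp90ab1 position to 64.5% in Hsp90b1. Its median was 49.0% over 20 pairs, which count the Hspa8 bin whose antisense peak carries the name of the snoRNA gene. The antisense peak was the higher in 13 of them and the sense peak in 3, and 4 were equal. By member gene names alone there were 19 pairs with a median of 48.8%, and 3 were equal. In replicate 1 the antisense peak was higher in 2 of 3 pairs and the third, the same Hspa8 bin, was equal. Over the whole replicate 2 list the antisense peak was the higher in 56.9% of 2865 pairs, with a median sense share of 49.0%. A pair enters only where both strands were called, which removes bins with a large difference near the lowest called tags.

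**Figure D4:**
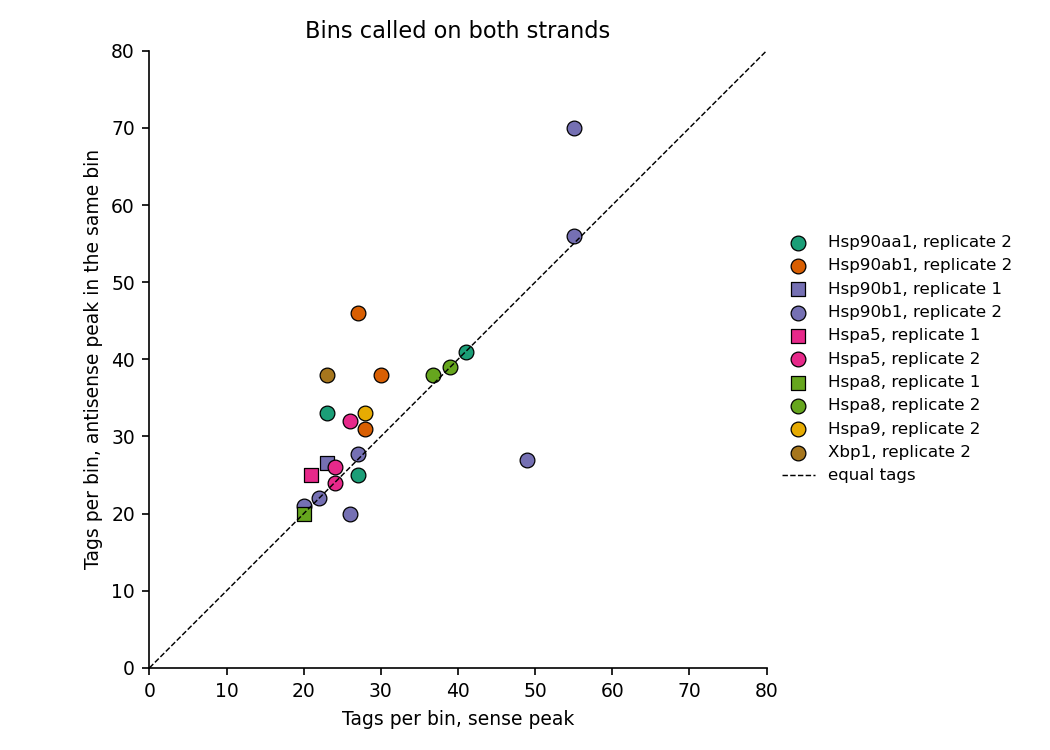
Tags of the antisense peak against tags of the sense peak for each bin called on both strands, coloured by gene, squares for replicate 1 and circles for replicate 2; the dashed line marks equal tags. Points reach 55 sense and 70 antisense tags. The Hsp90ab1 point at 27 sense and 46 antisense tags is the farthest above the line, and the Hsp90b1 point at 49 and 27 the farthest below it.

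Most sense peaks of the chaperone genes lay on exon-intron boundaries. Exon and intron sequence occurred together in 6 of 9 sense peaks of replicate 1 and in 20 of 29 of replicate 2. The shares over all sense peaks were 67.8% and 71.2%, so the member shares of 66.7% and 69.0% were near the background. Taking the class that covers most of a peak, 5 of 9 sense peaks were coding in replicate 1 and 21 of 29 in replicate 2, beside 54.4% and 60.9% of all sense peaks. Some coding sequence was present in 33 of the 38 sense peaks of both lists. None lay mostly in a 3′ UTR, a class that took 0.833% and 1.41% of all sense peaks. Peaks wholly in coding sequence were found in Hsp90aa1, Hsp90ab1, Hsp90b1 and Hspa8, with 3, 2, 2 and 1 in replicate 2. Coding bins of these genes can resemble processed copies elsewhere in the genome. How reads with several matches were handled is stated nowhere in the sources used here. Whether such reads entered these peaks was not tested.

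Overlapping genes were looked up by name in RefSeq (assembly GRCr8, names alone). For Hsp90ab1, Hsp90b1, Hspa5 and Xbp1 the table holds no other gene over their span. Hsp90aa1 overlaps LOC102549239, a lncRNA gene with no peak in either list. Hspa8 overlaps Snord14a and LOC120094548, and Hspa9 overlaps LOC120098354 and LOC120098355, all snoRNA genes. LOC120094548 alone among these had peaks, 1 in each list. Its minus-strand peaks are annotated as antisense to it, which puts it on the plus strand like Hspa8. The table gives no strand for the others.

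Other chaperone, co-chaperone and unfolded protein response genes were counted in the same way. Of 113 such genes, 18 had a peak in replicate 1 and 39 in replicate 2, and all 18 were among the 39. Of the 23154 protein-coding genes of the name table, 851 had a replicate 1 peak and 7.25% had a replicate 2 peak. A peak in both lists was held by 3.31%, and a peak recurrent by position by 2.62%. Of the 113 genes, 11 had a peak recurrent by position. Expression was not measured here, so genes that are silent in H9C2 are part of the 23154. Of the 18 genes with a replicate 1 peak 7 were antisense-only, beside 28.7% of all genes with a peak there. In replicate 2, 4 of the 39 were, beside 15.9% of all genes with a peak.

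Among HSP90 and HSP70 co-chaperones, 3 of 21 had a recurrent peak. Ptges3, which encodes the HSP90 co-chaperone p23, had a sense boundary peak with 30 tags in replicate 1 and 20 in replicate 2. Cdc37, which brings kinases to HSP90, had an antisense peak with 24 and 40. Fkbp5, of the steroid receptor complex, had a sense peak with 21 and 33. HSP90 co-chaperone genes thus had recurrent peaks on either strand. None of the 20 DnaJ genes had a replicate 1 peak, beside 851 of the 23154 protein-coding genes. In replicate 2, 5 of the 20 had at least 1 peak, beside 7.25% of protein-coding genes. The highest tags were 77 in Dnajb6 (antisense alone), which was chosen after its value was seen.

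In the chaperonin and small heat shock protein list 2 of 17 had a recurrent peak. Both recurred on both strands. Hspd1, which encodes the mitochondrial chaperonin HSP60, had a sense peak with 20 and 31 tags and an antisense peak elsewhere in the gene with 20 and 27. Cct6a, a subunit gene of the cytosolic chaperonin, had 24 and 28 antisense tags and 20 and 27 sense tags in the same bin. Of 15 genes for lectins and disulfide isomerases of the endoplasmic reticulum, 8 had a replicate 2 peak and 2 a recurrent 1. The lectin gene Canx had 2 recurrent sense peaks, the stronger with 29 and 36.5 tags in its 5′ UTR, and the isomerase gene Pdia3 had 20 and 21, antisense. Among 23 genes of the unfolded protein response and of degradation from the endoplasmic reticulum, 4 had a recurrent peak. Vcp, the segregase that extracts substrates, had an antisense peak with 25 and 32 tags and a sense peak elsewhere with 24 and 23. The degradation lectin gene Os9 had 23 and 23 sense tags and 22 and 27 antisense tags in 1 bin. The stress transcription factor gene Atf4 had a recurrent peak on the sense strand alone, with 23 and 25 tags in coding sequence, and Sel1l, an adaptor of the ubiquitin ligase, on the antisense strand alone, with 22 and 33. Of the sensor genes, Ern1, which encodes IRE1, Atf6 and Eif2ak3 had no peak in either list, and the Atf6 paralogue Atf6b had a sense boundary peak of 23 tags in replicate 2.

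Within the chaperone families, the 12 further HSP70 genes had no recurrent peak, beside 2.62% of all protein-coding genes with 1. The HSP70 members were chosen with recurrent peaks already known, so nothing is read from this count. Hyou1, Hspa4 and Hsph1, large HSP70-like proteins, had 8, 9 and 5 peaks in replicate 2, and Hyou1 had 1 in replicate 1. Trap1, the mitochondrial HSP90, and the stress-inducible Hspa1a and Hspa1b had no peak. Among 4 heat shock factor genes and regulators, Hsbp1 had 2 replicate 2 peaks, and Hsf1 had none in either list.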

How the data were processed

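RBM25-bound RNA of H9C2 cells was sequenced with 2 IP and 2 input samples. Per the submitters' processing notes, HISAT2 and the build mRatBN7.2 were used; the caller of the peaks, the filters and the role of the inputs are stated nowhere in the sources used here. The authors deposited 1 peak list per IP; tags are a signal per bin, per the file headers and values, unscaled for depth. The p-value of each peak, deposited by the authors, was used only for an alternative that keeps peaks at or below the median p-value of their list.

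Member peaks were selected by gene name, and overlap needed at least 1 base on the same strand; ends that only touch did not count. No test was run, because peak calls chose the members; the members and the 8 gene lists were chosen with earlier results of these data known. Named genes were the 7 members and, per list, up to 4 others with a recurrent peak by replicate 1 tags; other genes named were chosen after seeing values. All 113 listed genes matched the RefSeq table. No sequence is printed, since no genome of the build was used here. The overlap procedure was tested on simulated data and recovered every planted count in 20 of 20 simulations of 500 peaks. Software was matplotlib 3.10.9, pandas 2.3.3, numpy 2.4.6 and scipy 1.17.1 on Python 3.11.15.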

Additional observations from a re-analysis of the deposited data

How the results depend on the processing

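No paired analysis was possible because both peak lists analysed here are of the IP group, with no second group to pair them with, and no result comes from a test. With peaks at or below the median deposited p-value of their list, 37 of 70 member peaks were kept. Of these, 6 were in replicate 1, where 4 recurred in place of 14 of 16, and 31 in replicate 2. Over the whole lists 1392 peaks of replicate 1 and 4238 of replicate 2 were kept, so fewer partners remained for any peak. No whole-list recurrence under this filter stands beside these counts. In this setting 6 other chaperone and stress genes had a peak in both lists in place of 18. Without replicate 2 16 member peaks remained, and without replicate 1 54. Coding sequence at any overlap covered 86.8% of sense member peaks in place of 68.4%. The count of 18 other genes became 11 for a peak shared on the same strand, 11 with sense peaks alone, 39 without replicate 1 and 18 without replicate 2. Ranked by replicate 2 tags, 5 of 6 member genes kept the same strongest recurrent peak; that of Hsp90b1 changed to the peak with 19 tags in replicate 1. The recurrent count was 11 at identical positions and 14 on either strand or within 50 bases. The antisense share, 45.7%, ran from 43.8% to 48.6%, and was 47.2% with the peaks of the snoRNA gene, a setting chosen after seeing the data. Low tags and 2 lists of unknown depth limit what an absent peak can show.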
